A study of Homo sapiens with 6 samples.

Results

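The 10 genes described here act in cytokinesis, the physical parting of daughter cells at the end of mitosis. They are the midbody organiser CEP55, the contractile ring and central spindle genes ANLN, ECT2, RACGAP1, PRC1 and CIT, and the membrane and microtubule cutting genes CHMP4B, PDCD6IP, TSG101 and SPAST. They were chosen by their textbook roles around CEP55, which had already been seen among the genes with the greatest falls in this same comparison of CHAF1A-depleted and control cells. Their differences between the groups are therefore given as a description, with no p-value. Each of the 10 symbols matched 1 row among the 63186 Ensembl genes of the table, and 10 of the 10 were among the 15911 genes with enough counts to be tested. RNA was sequenced from RBE, a long-established human cell line of intrahepatic cholangiocarcinoma, which arises from bile ducts within the liver. At about 60% confluency the cells received a control siRNA (si-Ctrl, 3 libraries) or siRNA directed at CHAF1A (si-CHAF1A, 3 libraries), both by lipid transfection. Medium was renewed at 24 h and cells were collected at 48 h, so the groups share the line, the transfection and the times. The series concerns the RNA acetyltransferase NAT10, chromatin and transposable elements. CHAF1A encodes the large subunit of the chromatin assembly factor that deposits histones behind the replication fork.

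Cytokinesis starts when PRC1 bundles antiparallel microtubules between the separating chromosomes into the central spindle. RACGAP1, with the kinesin KIF23, forms centralspindlin there and activates the exchange factor ECT2, which switches on the GTPase RHOA at the cell equator. RHOA drives the actin and myosin ring, which anillin (ANLN) scaffolds and which citron kinase (CIT) ties to the midbody, the thin bridge that is left. CEP55 is then recruited to the midbody and binds ALIX (the product of PDCD6IP) and TSG101, which bring in the ESCRT-III filament protein CHMP4B to sever the membrane, while spastin (SPAST) cuts the microtubules. CEP55, ANLN, ECT2, RACGAP1 and PRC1 are known as genes of the G2 and M phases, whereas the ESCRT proteins also serve endosomes and other membranes in cells that are not dividing.

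CHAF1A itself stood at 51.0 to 59.8 CPM (read counts scaled to a common library size) in si-Ctrl and at 11.1 to 12.9 CPM in si-CHAF1A, as the group labels state. The libraries held 15643381 to 20918997 counts. On the second principal component (11.2% of the variance) si-Ctrl 2 lay at -29.6, away from the other controls at 14.9 and 13.9, so values without it are given where they matter. The 6 genes listed as bile duct epithelium markers (KRT7, KRT19, KRT8, KRT18, EPCAM and SOX9) were all in the tested range. They summed to 4111 to 4779 CPM in si-Ctrl and 5319 to 5839 CPM in si-CHAF1A. The sum does not show which of these genes carries it. By edgeR 4 of 6 were higher and 1 lower (18.5% of all tested genes were higher and 19.3% lower). None of 5 leukocyte markers reached the tested range (summed level 1.09 to 1.32 CPM in si-Ctrl and 0.617 to 0.747 CPM in si-CHAF1A), nor did the hepatocyte marker ALB, with HNF4A as the 1 of 6 hepatocyte genes tested. HNF4A was at 36.8 ± 4.16 CPM in si-Ctrl and 46.4 ± 5.04 CPM in si-CHAF1A (SD, n = 3 each) and was higher by edgeR (adjusted p = 0.0143), and the summed hepatocyte markers were at 33.9 to 41.6 and 42.5 to 52.7 CPM. Summed levels of 6 fibroblast markers were 8.66 to 11.8 CPM in si-Ctrl and 16.02 to 36.2 CPM in si-CHAF1A. Those of 4 endothelial markers were 2.41 to 3.77 and 6.60 to 8.86 CPM. Of the 2 tested genes in each of these lists, 1 was higher and 0 lower by edgeR. CD3E, DCN and LUM had no count in the si-Ctrl libraries. The part of these markers in the results below was not tested. The labels do not give the number or the sequence of the siRNAs, so an effect of lowered CHAF1A and an effect of the siRNA sequence on other transcripts cannot be told apart. In RNA from whole cultures, fewer cells in mitosis and less RNA of a gene in each cell cannot be told apart either.

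The promoters of 5 of these genes, CEP55, ANLN, ECT2, PRC1 and CIT, hold letters that are well known from promoters of G2 and M phase genes. The cell cycle homology region (CHR), the DNA element bound by the MuvB complex, was searched as TTTGAA or TTCGAA, and the box bound by NF-Y as CCAAT, each on both strands, in RefSeq windows (GRCh38.p14) of 300 bases that run from 250 before to 50 after the start of the gene. A window was found for 9 of the 10 genes, and RACGAP1, which had none, was not searched. The CHR was present in CEP55, ANLN, ECT2, PRC1 and CIT (5 of 9) and in 0 of the 4 cutting genes, while 16.4% of all 35116 windows searched held it. The CCAAT box was in CEP55, ECT2, PRC1, CIT and SPAST, against 34.6% of all windows. An E2F word (TTTCCCGC, TTTCGCGC, TTTGCCGC or TTTGGCGC, on both strands) was in 0 of the 9, against 3.31% of windows. Nothing is read from the 0 of 4 cutting genes or the 0 of 9, since so few genes stand beside these shares. In CEP55 (chr10:93496362-93496661, plus strand) the CHR letters stand at -116 and -3 from the RefSeq start and the CCAAT box at -102. The whole window is printed because CEP55 differed most, beside that of CHMP4B (chr20:33811098-33811397, plus strand), the gene that differed least. Capitals mark the CHR and CCAAT letters, and the CHMP4B window has none.
CEP55: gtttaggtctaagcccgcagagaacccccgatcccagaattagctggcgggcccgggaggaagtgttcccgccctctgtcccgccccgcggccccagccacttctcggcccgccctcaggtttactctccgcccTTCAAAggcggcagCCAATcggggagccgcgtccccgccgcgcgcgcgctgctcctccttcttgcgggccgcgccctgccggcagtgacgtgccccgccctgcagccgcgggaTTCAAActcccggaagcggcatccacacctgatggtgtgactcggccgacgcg
CHMP4B: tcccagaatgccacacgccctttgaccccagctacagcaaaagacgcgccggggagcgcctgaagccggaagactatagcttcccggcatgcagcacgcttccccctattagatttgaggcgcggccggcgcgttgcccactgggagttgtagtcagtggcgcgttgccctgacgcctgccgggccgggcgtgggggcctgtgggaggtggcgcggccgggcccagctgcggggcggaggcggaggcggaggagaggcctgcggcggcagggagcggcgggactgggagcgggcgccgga

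For the other 4 genes with a CHR, the match closest to the start, or for ECT2 the upstream one, is printed with its neighbouring bases, again with the CHR in capitals. ANLN (window chr7:36389612-36389911, plus strand) has 2 adjoining copies facing each other, at -26 and -20. ECT2 (chr3:172750476-172750775, plus strand) has one at -115, with another at 35, and 3 CCAAT boxes. A second ECT2 window (chr3:172750752-172751051, plus strand) has CHR letters at -242 and -182 from its own start and 0 CCAAT boxes. Its match at -242 is the same site as that at 35 in the first window. PRC1 (chr15:90994486-90994785, minus strand) has a single CHR at -20 and a CCAAT box at -53. CIT (chr12:119877271-119877570, minus strand) has CHR letters at 11 and at -208.
ANLN: ggcgctgaaaTTCAAATTTGAAcggc
ECT2: gttgggcttaTTTGAAacacacgcac
PRC1: cgtggcgcggTTTGAAattttgcggg
CIT: gttcctcgggTTCAAAcgcggcggcg
These are matches of letters and not measured binding sites. Over tested genes with a window, 26.4% of the 1755 with a CHR match were lower in si-CHAF1A by edgeR, and 20.6% of the 9531 without one.

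CEP55 (ENSG00000138180, chromosome 10, 93496632 to 93529092, plus strand) had the greatest difference of the 10 genes. It stood at 138.7, 127.0 and 139.4 CPM in si-Ctrl 1, 2 and 3, against 32.04, 35.4 and 36.97 CPM in si-CHAF1A 1, 2 and 3. Every knockdown library lay far under every control library. The mean went from 135 ± 6.94 to 34.8 ± 2.51 CPM (SD, n = 3 each), a level 3.88-fold lower (log2 fold change -1.96, SE 0.08), which is a loss of 74.2%. These values rest on 2169 to 2514 control and 539 to 659 knockdown reads. The 23 tested genes with a more negative fold change make up 0.145% of 15911. Without si-Ctrl 2 the log2 fold change was -2.003, and it stayed between -2.003 and -1.901 over the 13 alternative fits.

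**Figure D1:**
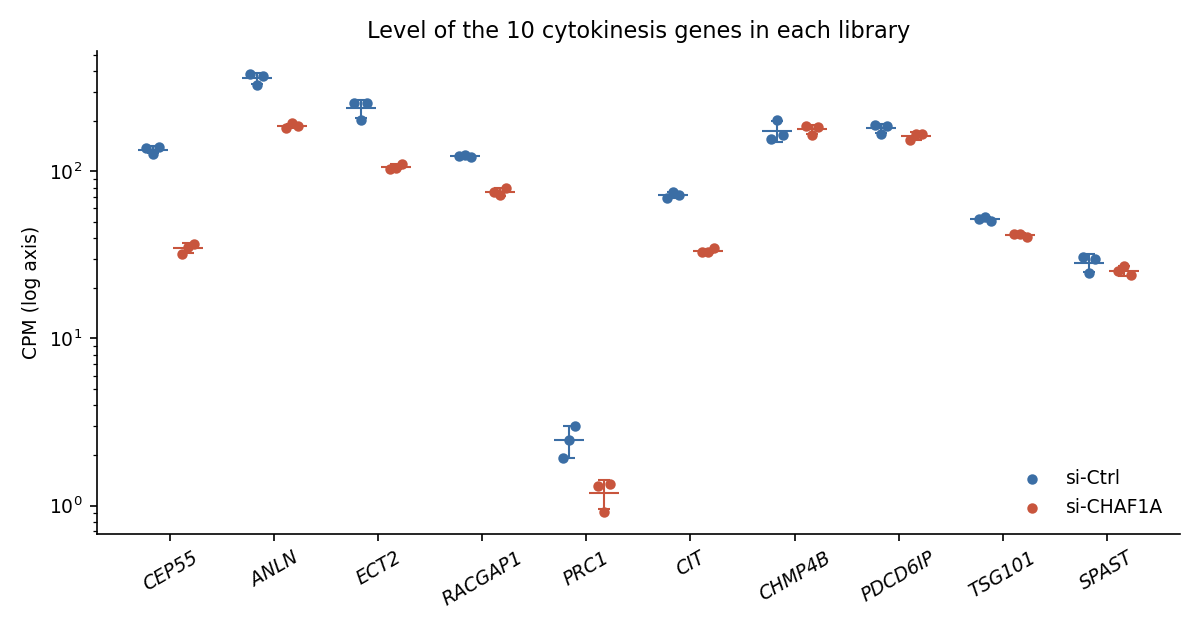
CPM of each of the 10 genes on a log axis, with 1 point per library (si-Ctrl in blue, si-CHAF1A in red) and bars for the mean ± SD of 3 libraries. CEP55 goes from 127.0 to 139.4 CPM in control to 32.04 to 36.97 CPM in knockdown cells, while the points of CHMP4B, PDCD6IP and SPAST overlap between the groups. The level of PRC1 cannot be taken from its row.

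The contractile ring and centralspindlin genes were lower by smaller factors. ANLN (ENSG00000011426, chromosome 7, 36389806 to 36453791) measured 383.8, 329.2 and 370.1 CPM with control siRNA and 181.5, 193.6 and 186.3 CPM with CHAF1A siRNA. Its groups did not overlap, and the mean went from 361 ± 28.4 to 187 ± 6.12 CPM (log2 fold change -0.95, SE 0.07). ECT2 (ENSG00000114346, chromosome 3, 172750682 to 172821474), the RHOA activator, stood at 255.9, 202.6 and 255.8 CPM in control and 103.6, 105.2 and 111.3 CPM in knockdown cells. The control si-Ctrl 2 was its lowest control library and still lay above all knockdown libraries, and the log2 fold change of -1.16 (SE 0.09) was -1.27 without it. CIT (ENSG00000122966, chromosome 12, 119685790 to 119877291), the midbody kinase, stood at 69.02, 74.9 and 72.03 CPM against 32.8, 32.7 and 34.7 CPM. Its control values lay close together, with a coefficient of variation of 4.08%, and it was 2.16-fold lower (log2 fold change -1.11, SE 0.07).

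RACGAP1 (ENSG00000161800, chromosome 12, 49976923 to 50033136), the GTPase-activating subunit of centralspindlin, had the least spread among controls, at 123.1, 124.5 and 122.3 CPM. In knockdown cells it stood at 75.02, 71.9 and 79.3 CPM, under every control value, with a log2 fold change of -0.71 (SE 0.07). The pseudogene RACGAP1P1 took at most 2 counts in any library, so few reads went to that copy. PRC1 (ENSG00000198901, chromosome 15, 90966038 to 90995629), the microtubule bundler, had only 30, 49 and 52 counts in control and 22, 16 and 24 counts in knockdown libraries. In GENCODE 29, 3181 of its 5525 exon bases are shared with ENSG00000284946, a gene on the same strand that reads through the locus and that held 40 to 136 counts. How the counting treated reads that fall in 2 genes is not given in the sources used here, so the level of PRC1 cannot be taken from this row. The few reads it held were lower in si-CHAF1A (1.19 ± 0.236 against 2.46 ± 0.532 CPM, log2 fold change -1.05, SE 0.28), and the row that overlaps it stood at 6.87 ± 1.06 and 3.61 ± 1.13 CPM.

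The genes for cutting the membrane and the microtubules differed less. TSG101 (ENSG00000074319, chromosome 11, 18468336 to 18527232), the ESCRT-I subunit that CEP55 binds, measured 51.6, 53.4 and 50.6 CPM in control and 42.4, 42.2 and 40.3 CPM in knockdown libraries. Its groups were narrow and apart, with a loss of 19.8% (log2 fold change -0.32, SE 0.07). PDCD6IP (ENSG00000170248, chromosome 3, 33798352 to 33869707), which encodes the other CEP55 partner ALIX, stood at 188.6, 166.8 and 187.1 CPM against 153.4, 167.7 and 167.9 CPM. Here si-Ctrl 2 fell among the knockdown values, and the log2 fold change of -0.15 (SE 0.07) was -0.21 without that library. SPAST (ENSG00000021574, chromosome 2, 32063547 to 32157637), the microtubule-severing ATPase, stood at 30.8, 24.6 and 29.9 CPM against 25.2, 27.2 and 23.8 CPM. Its groups overlapped through si-Ctrl 2 as well, with a log2 fold change of -0.16 (SE 0.10), or -0.26 without it. CHMP4B (ENSG00000101421, chromosome 20, 33811304 to 33854366), the filament-forming ESCRT-III subunit, stood at 156.7, 202.2 and 165.3 CPM against 186.7, 165.6 and 183.2 CPM. In this gene si-Ctrl 2 was the highest of the 6 libraries, and the log2 fold change of 0.03 (SE 0.09) was 0.14 without it.

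At the threshold used for all genes (edgeR's quasi-likelihood test, adjusted p under 0.05), 7 of the 10 rows counted as lower and 0 as higher, and their groups did not overlap in the same 7. Among all tested genes 19.3% were lower and 18.5% higher (37.8% in either direction), and the groups stood apart with si-CHAF1A lower in 24.1% and higher in 24.1%. Since CEP55 was chosen from these values, the count describes the 10 genes, is no test of them, and nothing is read from it. Without PRC1, 6 of 9 were lower. Without si-Ctrl 2, 9 were lower and 1, CHMP4B, was higher, and the 3 genes whose groups overlap do so through that library. That fit called more genes over the whole table, 3709 lower and 3519 higher. With all 6 libraries these counts were 3064 and 2944. The median log2 fold change was -0.83 over the 10 genes, -0.71 without PRC1, and 0.00 over all tested genes. Across the 5 ring and spindle genes it was -1.05, which is the value of PRC1 itself, and it was -1.03 across the 4 others. Across the 4 cutting genes it was -0.15.

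**Figure D2:**
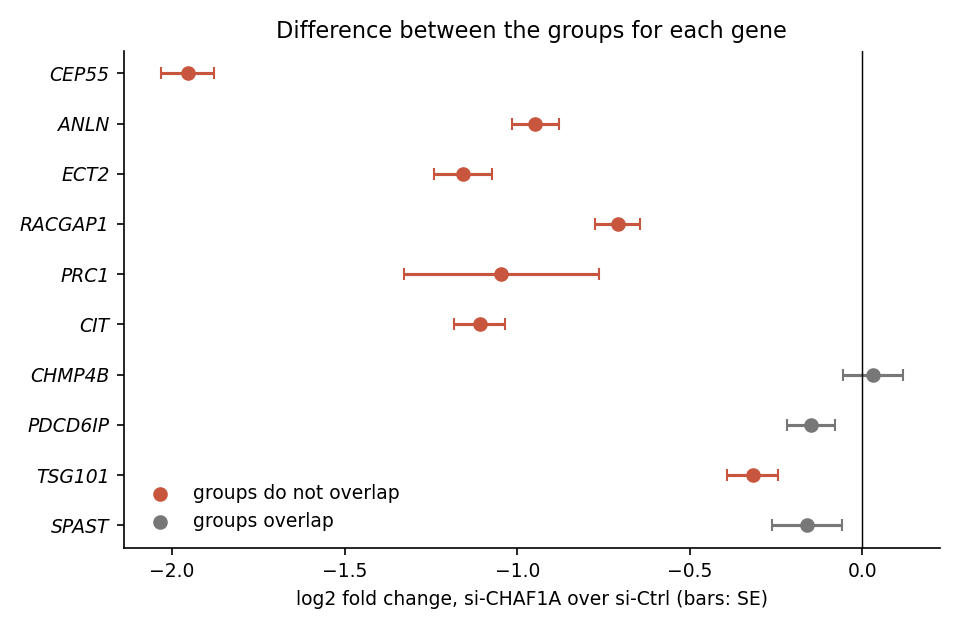
Log2 fold change of si-CHAF1A over si-Ctrl for each gene, with its SE as a bar, in red where the libraries of the groups do not overlap and in grey where they do. CEP55 lies at -1.96, the ring and spindle genes between -1.16 and -0.71, and the cutting genes between -0.32 and 0.03. PRC1 rests on few reads, in a row from which its level cannot be taken.

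The ratio of CEP55 to its partners, taken inside each library, differed between the groups. CEP55 was chosen for its fall in this comparison, and the genes it is set against here differed less. Lower ratios therefore restate the fold changes above and are no separate result. These CPM are not divided by gene length, so only the difference between libraries is read from a ratio. CEP55 was at 0.736, 0.762 and 0.745 times the CPM of PDCD6IP in control libraries, against 0.209, 0.211 and 0.220 times after knockdown. Its ratio to TSG101 was 2.69, 2.38 and 2.75 in control and 0.755, 0.839 and 0.918 in knockdown cells. Against ANLN, another gene that was lower, the ratio still went from 0.362, 0.386 and 0.377 to 0.177, 0.183 and 0.198. A ratio within a library does not depend on the scaling between libraries. The summed level of the 5 ring and spindle genes was 733.6 to 833.8 CPM in control and 394.2 to 413.0 CPM in knockdown libraries, whereas that of the 4 cutting genes was 427.7 to 446.9 and 402.7 to 415.3 CPM.

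Levels of different genes were compared as CPM per kilobase of merged exons, with PRC1 left out. In si-Ctrl, CHMP4B was the highest at 106 ± 14.7 CPM per kb, followed by ANLN at 60.05 ± 4.73, ECT2 at 43.3 ± 5.59 and CEP55 at 41.3 ± 2.12 (SD, n = 3 each). The ranges of ECT2 and CEP55 overlapped, so these neighbours did not differ beyond their spread. Below them came RACGAP1 at 27.5 ± 0.241, PDCD6IP at 20.01 ± 1.35, TSG101 at 13.5 ± 0.359, CIT at 5.44 ± 0.222 and SPAST at 2.999 ± 0.354 CPM per kb, each apart from its neighbour in range. In si-CHAF1A, CEP55 stood at 10.6 ± 0.768 CPM per kb, in the same range as TSG101 at 10.8 ± 0.307. CHMP4B (108 ± 6.87) and ANLN (31.1 ± 1.02) kept the highest places, and ECT2 was at 19.4 ± 0.745. PDCD6IP (18.04 ± 0.919) and RACGAP1 (16.8 ± 0.824) overlapped, as did SPAST (2.68 ± 0.179) and CIT (2.52 ± 0.0839). With the longest transcript as the length, the control order was the same. In knockdown cells CEP55 then stood below TSG101 (13.2 against 19.8 CPM per kb), and PDCD6IP above ECT2 (26.5 against 24.2).

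**Figure D3:**
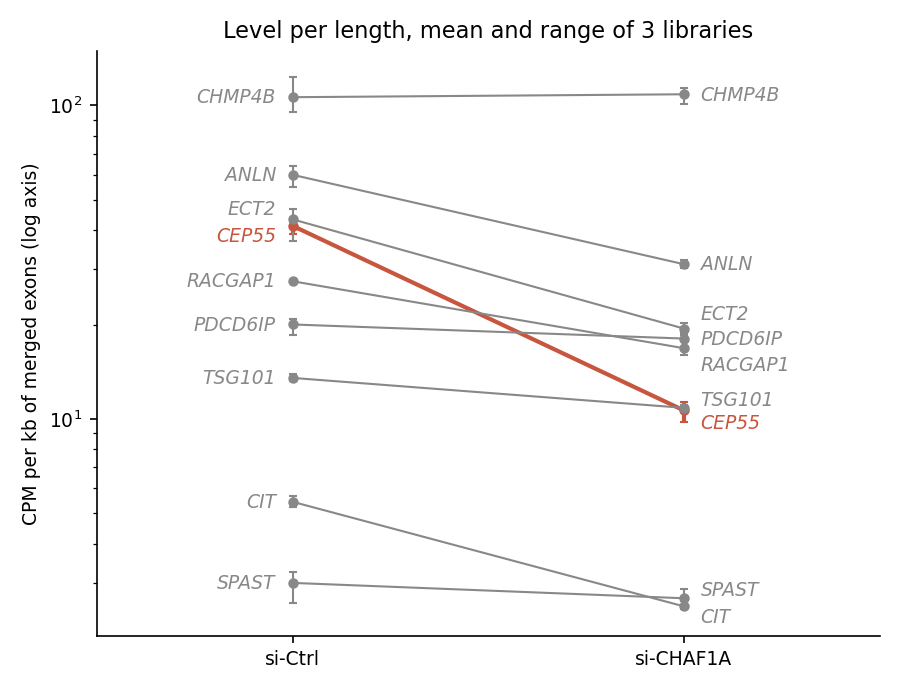
Mean CPM per kb of merged exons in si-Ctrl and si-CHAF1A for 9 genes on a log axis, with bars from the lowest to the highest of 3 libraries. CEP55 (red) goes from 41.3, beside ECT2, to 10.6, beside TSG101, while CHMP4B is at 106 and 108.

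Among the other genes of the central spindle and of the chromosomal passenger complex, which guides it, 10 of 11 were lower and 0 higher, with a median log2 fold change of -0.88 against 0.00 over all tested genes, of which 19.3% were lower and 18.5% higher. PLK1, the kinase that starts ECT2 recruitment, fell from 146 ± 10.7 to 60.4 ± 0.759 CPM (log2 fold change -1.27, edgeR adjusted p = 2.54e-09) and had the highest control CPM of the list, a value that is not corrected for length here or in the lists that follow. PLK1 was already known to be lower in these data, so the count of this list is not independent support. The kinesin KIF20A, which carries the passenger complex to the central spindle, fell from 64.4 ± 4.28 to 30.5 ± 3.04 CPM (edgeR adjusted p = 1.72e-07). The passenger subunit CDCA8 (borealin) fell by 0.92 on the log2 scale (edgeR adjusted p = 1.82e-07). BIRC5 (survivin), named because it was the exception, was at 78.4 ± 4.70 and 78.6 ± 4.53 CPM.

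Of 20 contractile ring and septin genes 8 were lower (40%) and 6 higher (30%), with a median of -0.08, beside 19.3% lower and 18.5% higher over all tested genes. The formin DIAPH3, which builds actin filaments, fell from 75.6 ± 4.99 to 39.7 ± 1.30 CPM (log2 fold change -0.93, edgeR adjusted p = 1.56e-07). The septins SEPTIN10 and SEPTIN7, whose filaments line the furrow, fell by 0.96 (edgeR adjusted p = 4.71e-07) and by 0.73 (edgeR adjusted p = 1.15e-05) on the log2 scale. The myosin light chain MYL9 rose from 21.08 ± 2.65 to 38.8 ± 1.35 CPM (log2 fold change 0.88, edgeR adjusted p = 4.12e-06), as did the myosin heavy chain MYH14 (0.84, edgeR adjusted p = 0.000483) and SEPTIN8 (0.27, edgeR adjusted p = 0.00471). MYH9, with the highest control CPM, was at 2324 ± 338 and 2175 ± 106.5 CPM and did not pass. Without si-CHAF1A 2 or without si-CHAF1A 3, 5 were lower.

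Of 29 other ESCRT genes 6 were lower, 4 higher and 19 not past the threshold, with a median of -0.04. These shares, 20.7% lower and 13.8% higher, are near those of all tested genes (19.3% and 18.5%), so the genes named are single genes and not a result about the list. VTA1, a cofactor of the VPS4 ATPase that recycles ESCRT-III, fell from 87.6 ± 9.002 to 57.3 ± 3.32 CPM (log2 fold change -0.61, edgeR adjusted p = 3.26e-05). The ESCRT-I subunit VPS37A fell by 0.63 (edgeR adjusted p = 0.000289) and the ESCRT-III relative CHMP7, known for sealing the nuclear envelope, fell by 0.36 (edgeR adjusted p = 0.00107). The ESCRT-I subunits UBAP1 and MVB12B rose by 0.43 (edgeR adjusted p = 0.000577) and 0.45 (edgeR adjusted p = 0.000842), and the ESCRT-III subunit CHMP3 rose by 0.29 (edgeR adjusted p = 0.00521). HGS, of the ESCRT-0 complex that sorts ubiquitinated cargo, had the highest CPM of the list in control cells, at 162 ± 21.1 against 148.5 ± 6.69 CPM, and did not pass.

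Among 12 genes of abscission timing and microtubule severing, 2 were lower and 2 higher (16.7% each), with a median of -0.04. These shares too are near those of all tested genes (19.3% and 18.5%), so nothing is read for the list. MITD1, which binds ESCRT-III at the midbody, fell by 0.47 on the log2 scale (edgeR adjusted p = 0.00446) and PDCD6, a calcium-binding partner of ALIX, fell by 0.31 (edgeR adjusted p = 0.0239). ZFYVE26, a lipid-binding midbody protein, rose by 0.30 (edgeR adjusted p = 0.00531) and BROX, a relative of ALIX, rose by 0.26 (edgeR adjusted p = 0.0152). KATNAL1, of the katanin family of severing enzymes, had the highest control CPM and was at 77.5 ± 10.5 and 77.6 ± 4.62 CPM. The lower genes came to 1 without si-Ctrl 1, si-CHAF1A 1 or si-CHAF1A 2, when PDCD6 no longer passed. The higher genes came to 1 without si-CHAF1A 2 or si-CHAF1A 3, when BROX no longer passed.

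Of 20 genes for membrane traffic to the midbody, 4 were lower (20%, near the 19.3% of all tested genes) and 8 higher (40%, beside 18.5%), with a median of 0.06. The GTPase ARF6, which acts in the delivery of recycling endosomes, had the highest control CPM and fell from 248.5 ± 6.16 to 127.5 ± 8.96 CPM (log2 fold change -0.96, edgeR adjusted p = 3.18e-08). RAB11B, of the same recycling route, fell by 0.38 (edgeR adjusted p = 0.00298), and EXOC8, of the exocyst tethering complex, fell by 0.34 (edgeR adjusted p = 0.00886), a call that was lost without si-Ctrl 3, where its log2 fold change was -0.27. Other exocyst subunits went the opposite way, with EXOC4 up by 0.50 (edgeR adjusted p = 3.81e-05) and EXOC7 up by 0.47 (edgeR adjusted p = 0.000108). The RAB11 adaptor RAB11FIP4 rose from 17.7 ± 1.86 to 28.2 ± 1.94 CPM (log2 fold change 0.67, edgeR adjusted p = 8.49e-05).

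The cell cycle phases were read from 2 further lists without the 10 genes. Of 51 tested G2 and M phase genes 48 were lower (94.1%) and 0 higher, with a median log2 fold change of -0.82. Of 43 G1 and S phase genes 28 were lower (65.1%) and 0 higher, with a median of -0.34. Over all tested genes 19.3% were lower and 18.5% higher, with a median of 0.00. AURKB, BIRC5, CDCA8, KIF20B and KIF23 are in both the G2 and M list and the central spindle list. AURKA and TPX2 of the G2 and M list, and PLK1 of the central spindle list, were already known to be lower in these data. The counts of these lists are therefore not independent support. The spindle kinase AURKA fell by 1.46 (edgeR adjusted p = 2.72e-10), the centromere chaperone HJURP fell by 1.41 (edgeR adjusted p = 2.54e-09) and the spindle assembly factor TPX2 fell by 1.08 (edgeR adjusted p = 3.38e-09) on the log2 scale. The tubulin TUBB4B, with the highest control CPM of the G2 and M list, fell by 0.26 (edgeR adjusted p = 0.0137). Its log2 fold change was -0.16 without si-Ctrl 2, and it did not pass without si-CHAF1A 2 (-0.25) or without si-CHAF1A 3 (-0.24). In the G1 and S list DSCC1, a clamp loading factor, fell from 26.5 to 8.40 CPM, a log2 fold change of -1.65 with an SE of 0.13 (edgeR adjusted p = 1.40e-07), and RRM1 and MCM6 fell by 0.72 (edgeR adjusted p = 8.00e-07) and 0.56 (edgeR adjusted p = 6.39e-06). MCM4, with the highest control CPM of that list, fell by 0.30 (edgeR adjusted p = 0.00107).

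The log2 fold changes of the 10 genes were also placed among those of the G2 and M list, as a description. Of the 51 genes 0 had a lower log2 fold change than CEP55 (difference from their median -1.14), a place largely set by its choice as one of the greatest falls in this comparison. For ECT2, CIT and ANLN, 6, 8 and 14 of the 51 were lower, and for RACGAP1 30 were, which places these genes inside the range of the list. TSG101 had 43 of the 51 under it, PDCD6IP and SPAST 49 each, and CHMP4B 51. The part of a shift in cell cycle phases in the levels of the 10 genes was not tested.

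**Figure D4:**
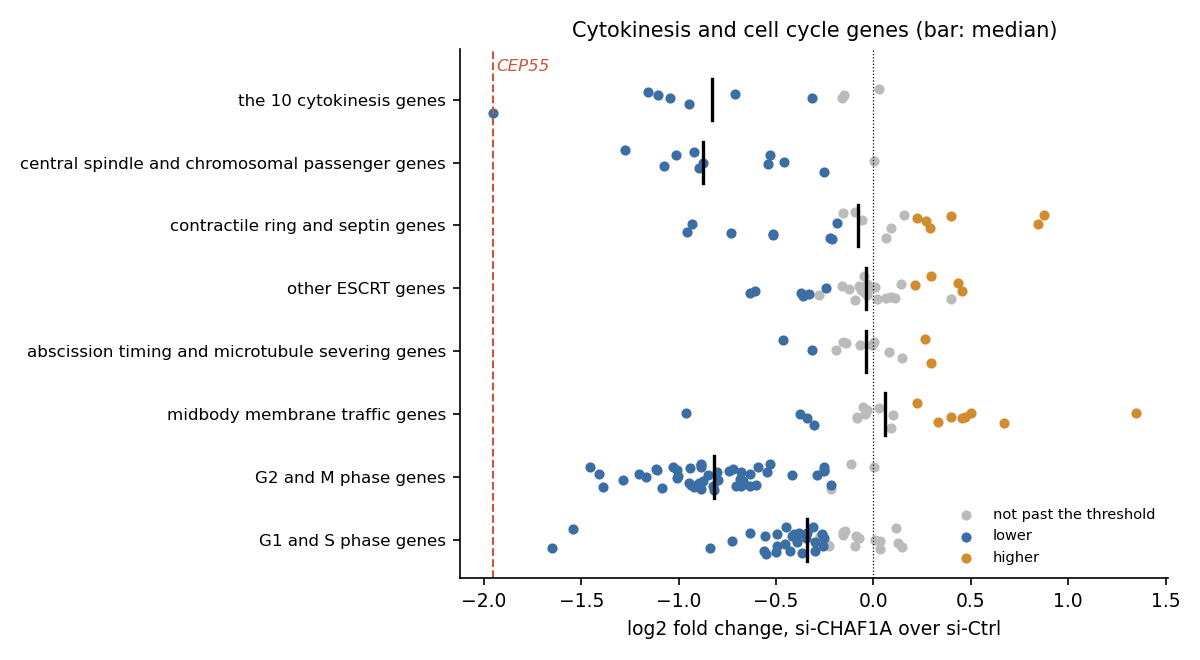
Log2 fold change of every tested gene in 8 sets, in blue for lower, orange for higher and grey for genes not past the threshold, with a black bar at each median and a dashed line at CEP55. The G2 and M phase genes centre on -0.82 and the central spindle genes on -0.88, while the 4 other cytokinesis sets centre between -0.08 and 0.06 with genes on both sides.

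Outside cytokinesis, the 5 genes most like CEP55 were sought by the distance between log2 CPM profiles over the 6 libraries, after setting the mean of the controls to 0, among 11347 genes with a mean log2 CPM of at least 2. They were the nucleosome-binding HMGN5 (distance 0.291), the ribosome assembly factor NSA2 (0.319), the general transcription factor subunit GTF2A2 (0.365), the ecto-nucleotidase NT5E (0.429) and the ubiquitin ligase subunit RMND5A (0.437). NT5E stood at 403.2, 360.5 and 392.7 CPM in control against 112.9, 119.5 and 120.1 CPM after knockdown. HMGN5 stood at 14.3, 15.4 and 15.1 CPM against 3.69, 3.27 and 4.04 CPM. That the groups of both genes lie far apart follows from their choice by nearness to CEP55. Among the 10 genes, ECT2 came nearest to CEP55 at a distance of 1.41 and CHMP4B was farthest at 3.48. With the Pearson correlation as the measure, 1 of the 5 genes was shared, so this choice depends on the measure. The likeness covers 6 libraries in 2 groups and is mostly the size of the difference between them.

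**Figure D5:**
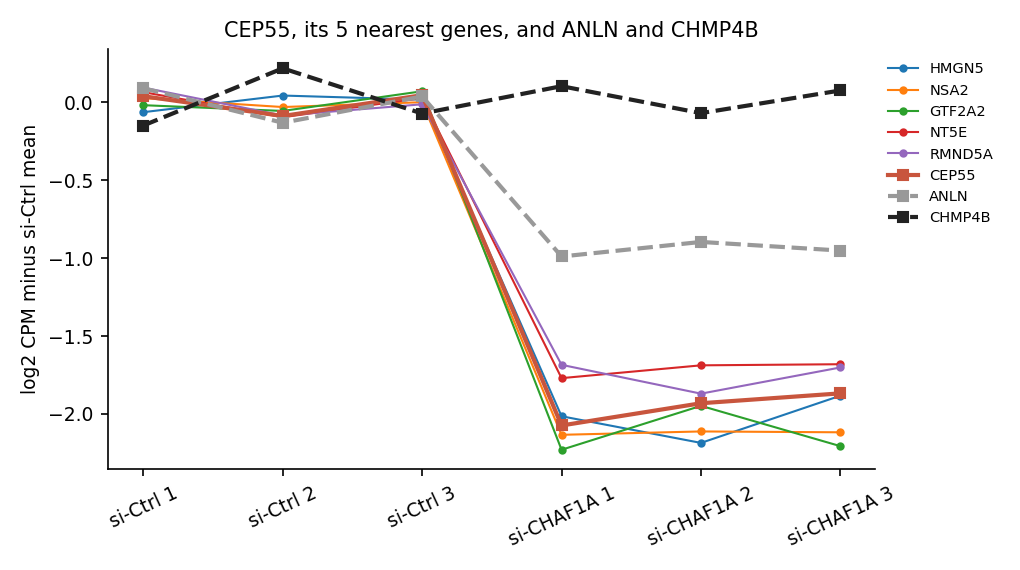
Log2 CPM minus the si-Ctrl mean in each of the 6 libraries for CEP55, the 5 genes with the nearest profiles, and ANLN and CHMP4B for comparison, with lines that only join the points of a gene. The 5 profiles stay beside CEP55 in all libraries, while ANLN lies about midway and CHMP4B stays near 0.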

How the data were processed

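RNA-seq was run on 6 libraries. Per the submitters' processing notes, fastp 0.20.1, HISAT2 2.1.0, SAMtools 1.9, featureCounts 2.0.1, StringTie 2.1.4 and hg38 were used, with roles, settings, strand mode and annotation release not given in the sources used here, so overlapping and antisense genes are uncertain. Reads were of 150 bp. The deposited values are whole-number read counts per Ensembl gene, not normalised. Column names NC and si were read as si-Ctrl and si-CHAF1A with the same number, which the labels do not state. No replicate pair was a duplicate (chi-square per degree of freedom 2.30 to 13.7). Replicates are described as biological, with no word on separate cultures, so a p-value covers only the spread among these libraries, which may be technical.

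The test was that of edgeR 4.0.16 under R 4.3.3 (robust quasi-likelihood, TMM, filterByExpr with a minimum count of 10 and total of 15), with Benjamini-Hochberg adjustment over 15911 genes, and the script was tested on simulated data. SE is the log2 fold change divided by the square root of F. CPM was computed from the deposited counts. Alternatives used limma 3.58.1, DESeq2 1.42.0, other factors, filters and a replicate block, and left out each library. The replicate numbers are not stated to pair cultures. Deviations of same-numbered libraries correlated at -0.0859, -0.0643 and -0.00313, and those of differently numbered libraries at -0.0255 to 0.0902. With 3 libraries a group, these values cannot decide whether cultures were paired. Symbols came from a gene name table (62665 of 63186 rows matched), and positions and exon lengths from GENCODE 29 (58173 rows, GRCh38). Promoter windows on chromosome 8 were not used.

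The 10 genes and all lists were chosen with earlier results of these data known. Named list genes are the 3 called lower and the 3 called higher with the smallest adjusted p (fewer where fewer were called) and the gene with the highest control CPM.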

Additional observations from a re-analysis of the deposited data

How the results depend on the processing

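Over 13 alternative fits, 7 of the 10 cytokinesis genes counted as lower in each except the one without si-Ctrl 2 (9 lower, 1 higher). That exception called 7228 genes over the whole table. With the replicate block 7 counted as lower and 5398 genes were called, against 6008 in the fit reported. The block changed no other count by over 1.5 times. Of 130 refitted log2 fold changes of these genes 129 moved by less than the SD between replicates, and TSG101 moved to -0.27 with upper-quartile factors. Leaving out 1 library can hardly move a value by more than that SD, so this count is no measure of stability. CHMP4B, at 0.14 and called higher without si-Ctrl 2, is among the 129. No called value changed sign. Contractile ring and septin genes lower ranged from 5 to 10 over the left-out libraries, and abscission timing and severing genes lower from 1 to 3, with 1 under upper-quartile factors. Upper-quartile factors raised the share of higher genes among those called from 49.0% to 57.3%. Of 533 refits of the named genes 9 lost the call (PDCD6, BROX, EXOC8 and TUBB4B). The cause of these changes was not tested. Precision is limited by 3 libraries a group and, for PRC1, by 16 to 52 reads.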
